A study of Mus musculus and Mus musculus
Oryx dammah with 30 samples.

Results

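Nuclear transfer (NT) embryos that received no α-amanitin were compared between recipients at the two-cell and the four-cell stage. The comparison holds 6 libraries of the 30 samples in the series: 3 two-cell NT libraries, taken from the columns with the prefix NT, and 3 four-cell NT libraries, taken from the columns with the prefix PBS, which were read as untreated because the other columns of that table are named for α-amanitin. All recipients were fertilised embryos of C57BL/6 oocytes and DBA/2 sperm, cultured with 0.1 μg/mL demecolcine, a drug that blocks microtubules, and all donors were C2C12 cells, a single myoblast line from C3H mice. Each two-cell pool held 5 embryos and each four-cell pool 3. NT at the four-cell stage was made 46 to 49 h post insemination (hpi), with collection at 70 hpi. NT at the two-cell stage was made at 21 to 24 hpi (early) or 30 to 33 hpi (late), with collection at 45 or 54 hpi, and the column names do not say which of these windows the libraries NT1, NT2 and NT3 come from. The four-cell recipients were arrested at G2/M phase before the transfer, whereas the early two-cell window lies before DNA replication, so that stage and cell cycle phase cannot be told apart. Each embryo brings its own nuclei and RNA, the RNA stored by the oocyte, and the RNA of the added myoblasts, so a level is a sum over these sources. Replicates are separate pools of embryos. In such pools, fewer cells of a type and less RNA per cell cannot be told apart.

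A mouse embryo starts on RNA made in the oocyte. Most of that RNA is destroyed around the two-cell stage, when the embryonic genome is first read at scale in a short burst that includes families such as Zscan4, Tdpoz and Usp17l. By the four-cell stage this burst is over, and genes of the later embryo come up: transcription factors of pluripotency and of the first cell types, and proteins of the outer epithelium, such as claudins and water channels, which later seal the blastocyst and fill its cavity. Lists of such genes were used to order the comparison.

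Stage cannot be told apart from table, pool size and embryo age here, since all of these change together between the 2 tables. No test was therefore run between stages. A gene was called only when the medians of log2(FPKM + 1) differed by at least 2, about 4-fold, and no two-cell library overlapped with any four-cell library. FPKM are fragments per kilobase of gene and per 1000000 counted fragments. Of 52577 genes joined by identifier, 13567 reached an FPKM of 1 in at least 3 of the 6 libraries and were kept. The second four-cell set was made of 6 untreated libraries with C2C12 donors, 3 named D and 3 named DR, from an experiment on DNA replication with pools of 4 embryos. They come from another table and from the same labelled stage. That experiment set transfer before the embryo's DNA replication against a later transfer after it, and the labels do not say which of these D and DR are, so that differences between the 2 four-cell sets may hold transfer time and replication as well as the table.

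The two-cell libraries held about 7584376 to 10504202 counted reads, the four-cell libraries 1829793 to 2278371, and the D and DR libraries about 2603963 to 19182812. The reads were whole numbers only in the four-cell table. How reads shared by gene copies were counted in each table is not given in the sources used here and may differ, so that a 0 of a multi-copy gene (Prl2c, Zscan4, Tdpoz, Dppa5b and Dppa5c, Taf9 and its pseudogene) in the four-cell table may rest on the counting, which was not tested. The number of genes with an FPKM of at least 1 was 14026 to 15546 in two-cell NT, 10255 to 10958 in four-cell NT and 13584 to 15070 in D and DR. Reads on annotated pseudogenes made up 20.2% to 29.5% in two-cell NT, 2.17% to 2.31% in four-cell NT and 9.9% to 12.3% in D and DR. Across protein-coding genes, two-cell libraries correlated with each other at r = 0.90 to 0.95, with four-cell NT at 0.67 to 0.78 and with D and DR at 0.71 to 0.87, and the 2 four-cell sets correlated at 0.81 to 0.89. Over all kept genes the order was another. There two-cell libraries correlated with D and DR at 0.73 to 0.87 and with four-cell NT at 0.48 to 0.58. The 2 four-cell sets correlated at only 0.61 to 0.70. These coefficients are across genes, which are not independent replicates. Library D1 stood apart, with Zscan4d at an FPKM of 472, against 0.0676 to 1.05 in the other D and DR libraries. Results that rest on D1 are given without it as well.

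Far more genes were higher in two-cell NT than in four-cell NT, but most of them were also higher in the other four-cell table. Of the 13567 genes, 2776 (20.5%) were called higher in two-cell NT and 564 (4.16%) higher in four-cell NT. When the same rule was applied to 2 four-cell sets, 2475 genes (16.3%) were higher in D and DR than in four-cell NT, and 11 (0.0723%) were lower. Of the 2776 genes higher in two-cell NT, 2002 (72.1%) were among those 2475. With D or DR alone, 18.9% and 18.3% of genes were higher than in four-cell NT, and 0.0895% and 0.272% lower. Among protein-coding genes, 6.29% were higher in two-cell NT and 5.71% in four-cell NT, while between the 2 four-cell sets 3.99% were higher in D and DR and 0.1% lower. Against D and DR as the four-cell set, 197 of 15998 genes (1.23%) were higher in two-cell NT and 339 (2.12%) lower. Pseudogenes made up 58.2% of the calls higher in two-cell NT and 63.6% of the calls between the 2 four-cell sets, but 2.13% of the calls higher in four-cell NT. The calls higher in two-cell NT than in four-cell NT therefore hold a difference that is also seen between D and DR and four-cell NT at the same labelled stage. Smaller differences between tables in the other direction are given with the gene lists they touch.

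**Figure D1:**
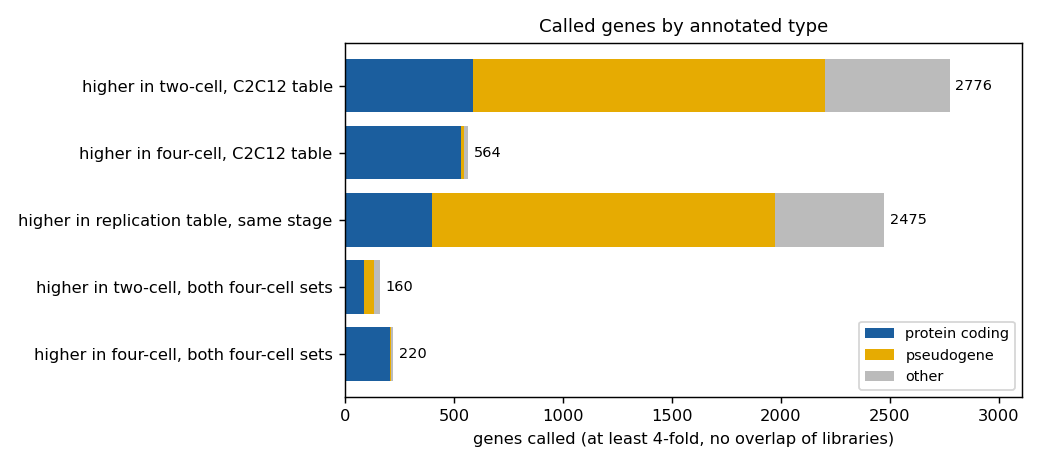
Number of called genes (x axis) for each comparison (y axis), divided into protein-coding genes, pseudogenes and other types, with the total at the end of each bar. The 2776 genes higher in two-cell NT and the 2475 genes higher in D and DR at the four-cell stage are both mostly pseudogenes, whereas the 564 genes higher in four-cell NT were protein coding in 94.1%.

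The genes described next were called against both four-cell sets, a choice made after these counts were seen. Of 13394 genes kept in both comparisons, 160 (1.19%) were higher in two-cell NT and 220 (1.64%) were higher in four-cell NT. Of these, 85 and 206 were protein coding, which is 0.923% and 2.24% of protein-coding genes. The 220 genes are 39% of those called higher in four-cell NT against the four-cell table and 64.9% of those called against D and DR. The 160 genes are 5.76% and 81.2% of the calls in the other direction. After rescaling to protein-coding genes only, 137 protein-coding genes were higher in two-cell NT and 170 in four-cell NT, and the median difference of protein-coding genes against the four-cell table moved from -0.16 to 0.16. Without library NT3, 83 genes were higher in two-cell NT, of which 67 were among the 160. The filter still asked for 3 libraries. Genes below 1 FPKM throughout the four-cell table pass it only through two-cell NT, and are lost whenever a two-cell library is left out. Losses of this kind are fixed by the filter and do not show a dependence on NT3. Without library NT1, 337 genes were higher in four-cell NT, of which 214 were among the 220.

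**Figure D2:**
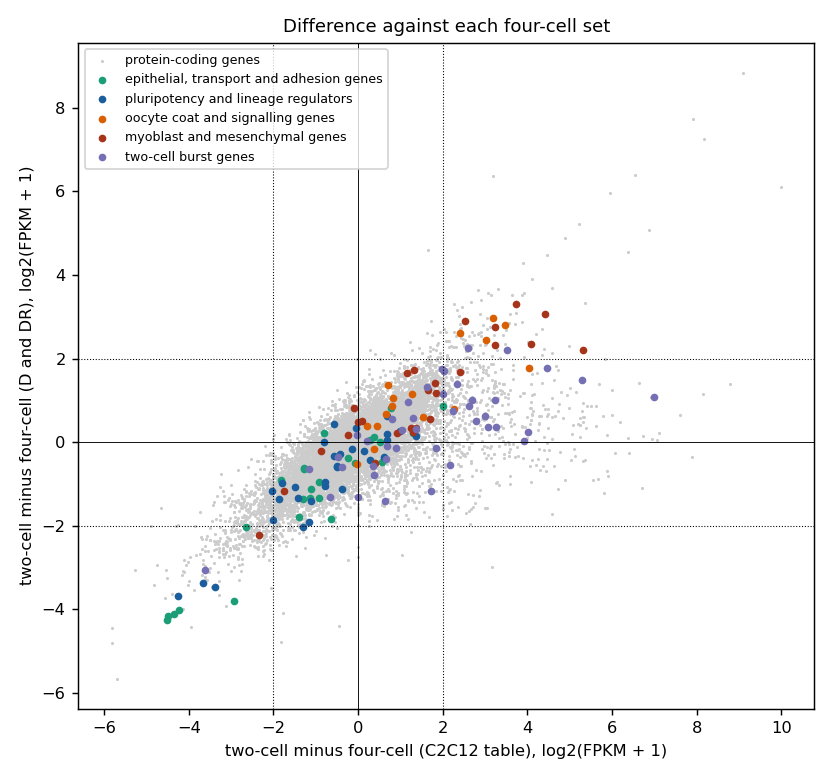
Difference of medians, two-cell minus four-cell, in log2(FPKM + 1), against the four-cell table (x axis) and against D and DR (y axis), for each protein-coding gene kept in either comparison; dotted lines mark differences of 2. The called epithelial and pluripotency genes lie at the lower left and the called oocyte and myoblast genes, other than Ccn1, at the upper right, while of the two-cell burst genes Pramel6 was called at the lower left and none at the upper right.

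A few genes of the embryonic epithelium were low in two-cell NT and higher in every four-cell library, while most of the list was not called. Of 24 epithelial, transport and adhesion genes kept, 5 (20.8%) were higher in four-cell NT against both sets, beside 1.64% of all genes, and none was higher in two-cell NT against both. Against the four-cell table alone, 6 were called higher in four-cell NT (25%, beside 4.16% of all genes). Ezr, a linker of membrane and actin, was called higher in two-cell NT (4.17%, beside 20.5% of all genes), and 17 were not called. The 5 called against both sets included Aqp3, a channel for water and glycerol, Cldn4 and Cldn7, claudins of the tight junction, and Krt18, a keratin of simple epithelia. Over the 24 genes the median difference was -1.13, and it was 0.36 over all genes. It was -0.29 without library S17 and -0.57 without S7, where the same filter kept only 19 and 18 genes of the list. Against D and DR it was -0.92 over 26 genes and -0.11 over all genes.

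Aqp3 was listed at 1.05, 0 and 0 FPKM in NT1, NT2 and NT3, and at 5.76, 30.8 and 21.7 in the four-cell libraries S15, S17 and S7. The D and DR libraries ran from 12 to 42.9, with a median of 18.1. Every four-cell library was above every two-cell library, and S15 was the lowest of the four-cell libraries. Cldn4 was at 0.0705, 0 and 0.145 in two-cell NT and at 19.1, 19.3 and 58.8 in four-cell NT, with 10.1 to 67.2 (median 16.5) in D and DR. Cldn7 was the only one of these above an FPKM of 1 in every two-cell library, at 2.53, 6.11 and 1.29, against 50.5, 78.6 and 106 in four-cell NT and 24.4 to 103 (median 64.6) in D and DR. The ratio of medians was 31.1 against four-cell NT and 25.5 against D and DR.

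Krt18 had lower levels, at 0.445, 0.331 and 0 in two-cell NT against 2.82, 7.42 and 18.8 in four-cell NT, and 1.53 to 11.4 (median 4.47) in D and DR. Its values spread more between four-cell libraries than those of the claudins.

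The α-amanitin libraries give the background for these genes. α-amanitin blocks RNA polymerase II, the enzyme that makes mRNA, and it was given to 3 pools at each stage. In four-cell NT, Cldn4 fell to 0.484 to 3.02 FPKM with α-amanitin, a difference of 3.41 ± 0.572 (log2, SE) without minus with (limma, adjusted p = 0.0109, n = 3 and 3). Aqp3 and Krt18 were also lower with α-amanitin, with adjusted p-values of 0.0307 and 0.0228 by limma. Cldn7 was at 64.9, 61.9 and 34.9 with α-amanitin, and its difference of 0.52 ± 0.36 did not pass (limma, adjusted p = 0.377). In this test 11.1% of 9884 genes were higher without α-amanitin and 1.13% were lower.

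Other genes of this list did not hold against both sets. Cldn6 reached 1.75, 7.26 and 11.1 in four-cell NT and 0.0744, 0.664 and 0 in two-cell NT, but one D and DR library was at 0.0952. Cdh1, the adhesion protein E-cadherin, was at 1.5, 1.09 and 0.404 against 2.98, 1.43 and 7.48, so that the stages overlapped.

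Promoters are shown for 3 genes called higher in four-cell NT and 2 called higher in two-cell NT, against both sets. Sequences are from RefSeq on GRCm38.p6, run 5′ to 3′ on the strand of the gene from 250 bases before to 50 bases after the start site, and carry in capitals matches on either strand to the TATA box (TATAAA), the CCAAT box (CCAAT), a homeobox core (GGATTA), the GC box (GGGCGG) and a Dux motif. The motifs were searched separately, so that a base could belong to more than one match.
Aqp3 promoter, chr4:41098134-41098433, minus strand: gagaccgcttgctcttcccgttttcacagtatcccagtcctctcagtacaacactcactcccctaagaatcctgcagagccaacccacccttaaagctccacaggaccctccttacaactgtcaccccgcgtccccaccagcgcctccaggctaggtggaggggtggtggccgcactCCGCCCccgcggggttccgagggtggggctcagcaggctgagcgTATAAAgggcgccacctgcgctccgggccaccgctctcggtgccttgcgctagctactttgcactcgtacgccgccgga
Cldn4 promoter, chr5:134946885-134947184, minus strand: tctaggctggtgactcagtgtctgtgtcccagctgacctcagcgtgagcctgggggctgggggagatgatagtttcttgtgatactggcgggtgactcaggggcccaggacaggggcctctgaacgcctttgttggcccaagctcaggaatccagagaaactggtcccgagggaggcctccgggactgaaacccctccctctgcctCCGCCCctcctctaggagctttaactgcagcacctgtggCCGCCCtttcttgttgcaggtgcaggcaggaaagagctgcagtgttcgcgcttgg
Pou5f1 promoter, chr17:35505782-35506081, plus strand: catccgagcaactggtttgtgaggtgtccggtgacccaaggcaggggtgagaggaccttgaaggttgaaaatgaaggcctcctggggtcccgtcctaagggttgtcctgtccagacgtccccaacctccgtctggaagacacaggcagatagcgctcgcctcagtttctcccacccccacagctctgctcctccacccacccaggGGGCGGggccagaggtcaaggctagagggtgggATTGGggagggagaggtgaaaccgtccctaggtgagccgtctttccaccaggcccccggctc
Oosp1 promoter, chr19:11691002-11691301, minus strand: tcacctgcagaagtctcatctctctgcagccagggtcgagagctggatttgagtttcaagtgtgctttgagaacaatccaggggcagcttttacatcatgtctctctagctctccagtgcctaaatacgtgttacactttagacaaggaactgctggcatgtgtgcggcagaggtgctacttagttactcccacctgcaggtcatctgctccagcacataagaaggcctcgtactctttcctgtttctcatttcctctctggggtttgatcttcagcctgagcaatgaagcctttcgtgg
Omt2a promoter, chr9:78313999-78314298, minus strand: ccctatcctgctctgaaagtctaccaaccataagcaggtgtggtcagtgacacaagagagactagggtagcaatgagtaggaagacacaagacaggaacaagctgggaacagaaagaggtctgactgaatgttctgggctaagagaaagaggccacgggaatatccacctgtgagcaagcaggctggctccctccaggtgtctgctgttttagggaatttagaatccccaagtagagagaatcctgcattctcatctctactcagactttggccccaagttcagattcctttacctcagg
Aqp3 has TATAAA starting 29 bases before the start site and GGGCGG on the opposite strand, Cldn4 has GGGCGG on the opposite strand at 2 places, and Pou5f1 has GGGCGG and, on the opposite strand, CCAAT. The 2 oocyte genes Oosp1 and Omt2a, described with the genes higher in two-cell NT, hold 0 matches in this window. Of genes higher in four-cell NT whose promoter is not printed, Cldn7 also holds 0 and Tdgf1 holds GGGCGG on the opposite strand. Among genes higher in four-cell NT against both sets, 161 had a promoter in the table and 55.9% of these held GGGCGG, while it was 37.3% of 83 among genes higher in two-cell NT, 60.8% of 8882 kept genes and 36% of all 27025 promoters. TATAAA was found in 8.7% and 15.7% of the 2 sets, 8.1% of kept genes and 14.2% of all promoters. CCAAT was found in 36% and 48.2%, beside 41.1% of kept genes, and GGATTA in 6.83% and 6.02%, beside 6.43%. The Dux motif was found in 0 of both sets and in 0.0407% of all promoters. Promoters of a single chromosome were left out, so that the full set here is not every promoter of the genome. Kept genes are here those kept in either comparison. These shares are descriptions of letters and were not tested.

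Among regulators of pluripotency and of the first lineages, Pou5f1, Gata6 and Tdgf1 were lower in two-cell NT against both sets, which is 3 of the 28 kept in both comparisons (10.7%), beside 1.64% of all genes. Over 29 genes the median difference was -0.57, with 21 below 0 and 8 above, and 24 of the 29 were not called in either direction. The median was -0.19 after rescaling to protein-coding genes. Pou5f1, which encodes OCT4, was at 0, 0.434 and 0.0293 FPKM in two-cell NT and at 6.05, 12.2 and 15.4 in four-cell NT, with 5.07 to 14.7 (median 9.74) in D and DR. The lowest four-cell library was thus far above the highest two-cell library. Gata6, a factor of the primitive endoderm, was at 2.01, 1.05 and 0.263 against 19.1, 20.4 and 29.1, and at 16.2 to 38.1 (median 21.6) in D and DR. Its ratio of medians was 19.3, and its 3 four-cell values lie close together.

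Tdgf1, a co-receptor of Nodal signalling, was at 2.13, 3.32 and 0.101 in two-cell NT and at 58.9, 60.9 and 32.6 in four-cell NT, with 12 to 64.4 (median 39.1) in D and DR. The values of the 3 genes with α-amanitin in four-cell NT follow. Gata6 was at 0 to 1.01, lower by 4.1 ± 0.433 than without (limma, adjusted p = 0.00267). Pou5f1 was at 10.5, 5.48 and 12.3 with α-amanitin, overlapping with the untreated libraries (limma, adjusted p = 0.798). Tdgf1 was at 53.8 and 42.5 in 2 of the libraries with α-amanitin and at 0.336 in the other (limma, adjusted p = 0.373).

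Other members of the list were nearer to each other at the 2 stages. Nanog was at 2.01, 1.61 and 1.62 in two-cell NT against 5.68, 4.88 and 2.06 in four-cell NT and 4.22 to 16.4 in D and DR, a difference of -1.17 that was below the limit. Tead4, a factor of the trophectoderm, was at 9.22, 7.45 and 4.04 against 17.3, 18.1 and 15.3, a difference of -1.12. Hand1 and Zfp42 passed the limit against the four-cell table, at -2.02 and -2.04, but not against D and DR, at -1.85 and -1.17.

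**Figure D3:**
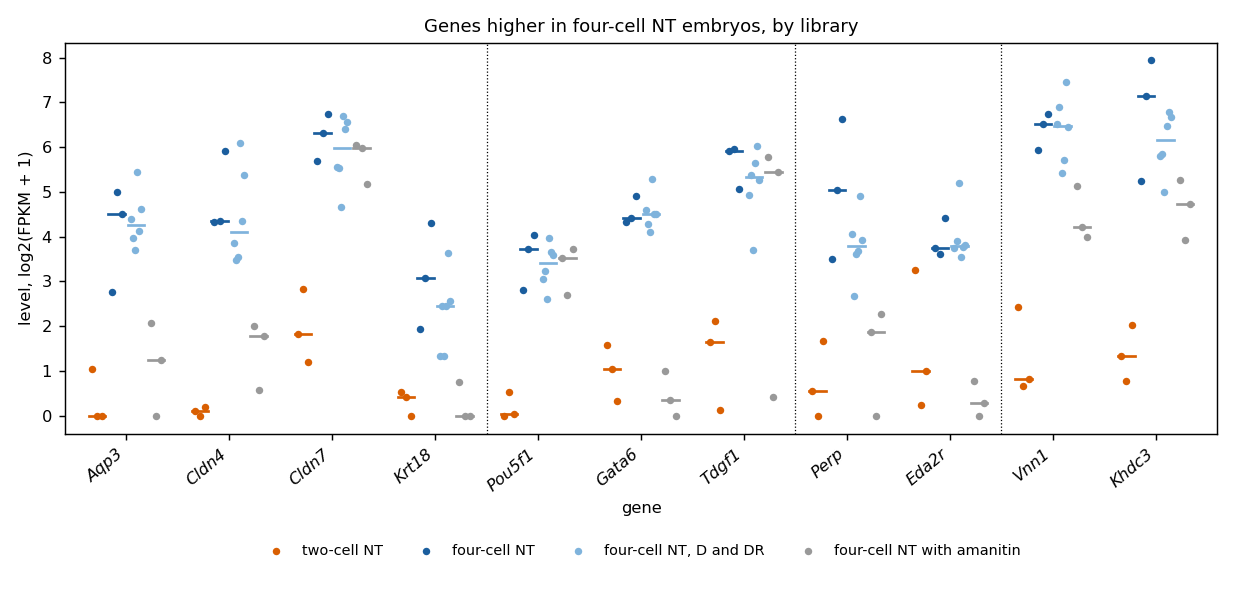
Level in log2(FPKM + 1) (y axis) of 11 genes (x axis) that were higher in four-cell NT against both four-cell sets; each point is a library and each line the median of its group. Epithelial genes, lineage genes, p53 targets and 2 further genes are parted by dotted lines, all two-cell libraries lie below both four-cell sets, and the grey four-cell libraries with α-amanitin lie low for Aqp3 and Gata6 and high for Cldn7 and Pou5f1.

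Some targets of p53, the factor that answers DNA damage and stress, were also lower in two-cell NT. Of 18 genes kept, 4 were called higher in four-cell NT against the four-cell table, beside 4.16% of all genes, and 14 were not called. The differences of 15 were below 0 and of 3 above, with a median of -1.1. Perp, a membrane protein of cell death and adhesion, and Eda2r, a death receptor, held against both sets (11.1% of 18, beside 1.64% of all genes). Perp was at 0.459, 0 and 2.17 against 10.3, 32.2 and 97.4, and at 5.37 to 29 in D and DR. Eda2r was at 8.63, 0.178 and 1.01 against 12.4, 11.3 and 20.5, so that NT1 came near the four-cell range while NT2 and NT3 did not. The same library was the highest for Cdkn1a, the cell cycle inhibitor p21, at 142, 21.2 and 25.6 in two-cell NT against 241, 99.3 and 239 in four-cell NT. Because of NT1, Cdkn1a overlapped between the stages and was not called.

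Genes known only by a predicted-gene, clone or accession number were left out of the ranking by size. Among the other called genes, the largest differences in favour of four-cell NT were in Khdc3, Vnn1, Smpdl3a, Ceacam10, Lrpap1, Ckmt1, Plet1, Tspan1, Fbp2 and Perp. Of these 10, 8 held against both sets. Ceacam10 and Plet1 did not. Vnn1, a pantetheinase, was at 4.4, 0.591 and 0.764 in two-cell NT and at 59.8, 90.3 and 106 in four-cell NT, with 42.1 to 173 in D and DR, a ratio of medians of 118 and 115. Khdc3, a subunit of the maternal subcortical complex, was at 1.53, 0.705 and 3.09 against 36.8, 141 and 244, with 30.8 to 110 in D and DR. It was the only maternal effect gene called against both sets (4.55% of 22, beside 1.64% of all genes). The median difference over 22 maternal effect genes was 0.07, and Dppa3 (Stella) was at 8379, 12250 and 8500 against 9870, 9788 and 8677. Lrpap1, a chaperone of lipoprotein receptors, was at 8.18, 14.8 and 10.6 against 214, 329 and 339, and at 91.1 to 161 in D and DR. With α-amanitin it was at 207, 204 and 186, a difference of 0.54 ± 0.24 that did not pass (limma, adjusted p = 0.176).

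Some genes of the oocyte coat and of oocyte signalling were higher in two-cell NT. Of 14 oocyte coat and signalling genes kept, 6 (42.9%) were called against the four-cell table, beside 20.5% of all genes. Against both sets 4 (28.6%) were called, beside 1.19% of all genes. Against the four-cell table none was called in the other direction, beside 4.16% of all genes, and 8 were not called. The 4 were Omt2a and Omt2b, a pair of near-identical oocyte genes whose reads could be shared between them, and Oosp1 and Oosp2, oocyte-secreted proteins. Omt2a was at 257, 284 and 586 FPKM in two-cell NT and at 64.1, 30.2 and 23.7 in four-cell NT, with 17.1 to 42.5 (median 35.6) in D and DR, a ratio of medians of 9.39 and 7.98. Oosp1 was at 49.1, 35.3 and 36.9 against 9.03, 6.19 and 6.18, with 0.591 to 22.1 (median 5.32) in D and DR. Both were high in every two-cell library.

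Oosp2 was at 8.49, 13.1 and 10.1 against 1.3, 0 and 0, and at 0.243 to 0.847 in D and DR. Of 7 Obox genes, a homeobox family, 4 (57.1%) were called against the four-cell table, beside 20.5% of all genes, and 1 (14.3%) against both sets, beside 1.19%. This was Obox5, at 22.9, 27.8 and 50.3 against 3.29, 3.58 and 2.17. Library D1 was at 19.7 for Obox5, and the other D and DR libraries were at 1.44 to 4.71. Without D1, Obox3 and Obox7 were called as well. Zp3, a coat protein, was at 20, 15.7 and 14.1 against 11.3, 9.91 and 11.5 and did not reach the limit, with a difference of 0.44. Of 13 Fbxw genes of an oocyte cluster 5 were also among the 160 genes (1.19% of all genes), with 1 of 4 Oog genes, the oocyte gene Oog3, and Fbxw14 was at 13.4, 22.2 and 31.4 against 0.415, 0.776 and 0.437. These were named after their values were seen.

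Part of the oocyte coat and signalling list was higher in two-cell embryos given α-amanitin than in those without. Omt2a was at 955, 950 and 1007 there, 1.47 ± 0.304 above the untreated libraries on the log2 scale (limma, adjusted p = 0.0194). Oosp1 was at 305, 151 and 176, which is 2.3 ± 0.293 above (limma, adjusted p = 0.0058). Of 16 genes of the list tested at the two-cell stage, 8 were higher with α-amanitin and 0 lower, while 4.18% of 14285 genes were higher with it. Of 7 Obox genes tested, 1 was higher and 1 lower with α-amanitin at the two-cell stage. At the four-cell stage 1 of 15 genes of the oocyte coat and signalling list was higher with α-amanitin, beside 1.13% of 9884 genes.

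Some genes of the myoblast and mesenchyme were higher in two-cell NT as well. Of 21 kept, 8 were called against the four-cell table, beside 20.5% of all genes, and 12 were not called. Against both sets 6 (28.6%) were called, beside 1.19% of all genes: Col3a1 and Fn1 of the extracellular matrix, the intermediate filament Vim, and S100a4, Lgals1 and Anxa1. The median difference was 1.7, with 17 genes above 0 and 4 below, and 1.00 against D and DR, beside 0.36 and -0.11 over all genes. Ccn1 was called in the other direction. Fn1, fibronectin, was at 32, 19.8 and 49.5 in two-cell NT against 0.789, 0.468 and 0.554 in four-cell NT and 1.17 to 11.9 (median 2.95) in D and DR. S100a4 was at 368, 460 and 1223 against 10.5, 7.49 and 120, and at 37.3 to 196 in D and DR. NT3 was the highest two-cell library for all 6 genes. The summed level of the 37 genes of the list found in the tables was 1640 to 6410 FPKM in two-cell NT, 382 to 1080 in four-cell NT and 454 to 902 in D and DR. In four-cell NT with α-amanitin it was 243 to 3670, so that 1 library there lay within the two-cell range.

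Of 2 genes that define muscle, picked after their values were seen, neither was called. Myod1, the myogenic factor, had a mean of 0.0917 ± 0.159 FPKM (SD, n = 3) in two-cell NT and 2.06 ± 1.35 in four-cell NT. Des, the muscle filament desmin, had a mean of 2.21 ± 1.5 and 0.67 ± 0.234. The part of donor cell RNA in these differences was not tested. Only 1 of 18 genes of cumulus and granulosa cells was kept, and the summed level of that list was 10.7 to 20.2 FPKM in two-cell NT and 16.3 to 17.8 in four-cell NT.

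Of 21 myoblast genes tested against α-amanitin in two-cell NT, 2 were lower and 3 (S100a4, Anxa2 and Bgn) higher with it, beside 12.7% and 4.18% of all genes. Col3a1 was at 17.5, 12.4 and 45.3 without and at 1.56, 0.83 and 1.71 with α-amanitin in two-cell NT, a difference of 3.27 ± 0.468 (limma, adjusted p = 0.0068), and Fn1 differed by 3.29 ± 0.361 (limma, adjusted p = 0.00428). S100a4 was at 1734, 2177 and 1779 with α-amanitin, so that it was lower without by 1.67 ± 0.41 on the log2 scale (limma, adjusted p = 0.032). Lgals1 was at 2126, 1989 and 1921 with α-amanitin and at 1273, 756 and 3589 without (limma, adjusted p = 0.59). The untreated libraries NT1 to NT3 were spread more widely than the treated ones for these last genes.

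Secreted factors gave the largest differences among protein-coding genes that held against both sets and were higher in two-cell NT. Genes were ranked by the smaller of their differences against each set, leaving out predicted-gene, clone and accession numbers. Prl2c2, Prl2c3, Prl2c5 and Prl2c1 are near-identical prolactin-family genes (proliferins), so that reads may be split between them. All 4 of the family in the tables were called against both sets, beside 1.19% of all genes. The family was picked because its members stood high in this ranking. Prl2c2 was at 129, 575 and 545 in two-cell NT, listed at 0 in all 3 four-cell libraries and at 0 to 1.11 in D and DR. No ratio is given, since a 0 of a gene with copies may rest on the counting in that table, which was not tested. With α-amanitin it was at 2712, 5079 and 3400 in two-cell embryos (limma, adjusted p = 0.0102), and at 0 in four-cell embryos. Ccl2, a chemokine, was at 266, 286 and 314 against 0, 0.48 and 0, and at 0.252 to 10.8 in D and DR. It was lower with α-amanitin, at 81.5, 76.5 and 54 (limma, adjusted p = 0.00368). Ccl7, Ccl8 and Cxcl1 were called as well, with differences of 6.55, 5.96 and 6.38 against the four-cell table. The redox enzyme Nqo1 was at 58.8, 34.6 and 84.7 against 13.9, 0.704 and 1.49.

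**Figure D4:**
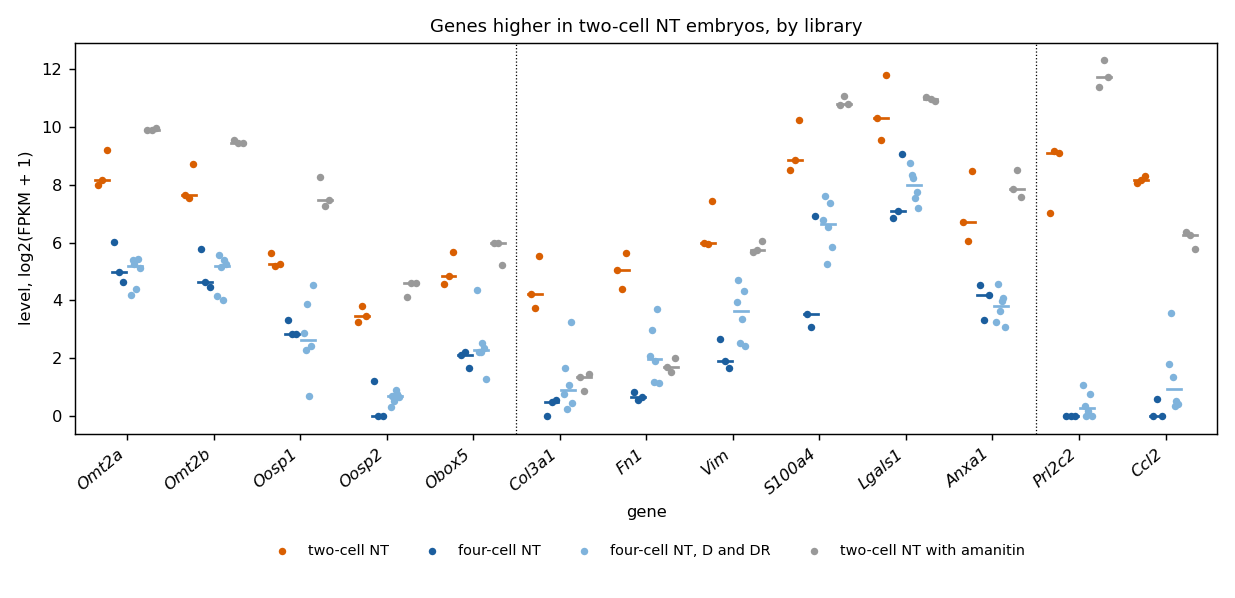
Level in log2(FPKM + 1) (y axis) of 13 genes (x axis) that were higher in two-cell NT against both four-cell sets; each point is a library and each line the median of its group. Oocyte genes, myoblast and mesenchymal genes and secreted factors are parted by dotted lines. The grey two-cell libraries with α-amanitin lie above the untreated ones for Omt2a, Oosp1 and Prl2c2 and below them for Col3a1, Fn1 and Ccl2.

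Genes of the two-cell burst gave different counts against the 2 four-cell sets. Of 40 kept, 15 (37.5%) were higher in two-cell NT against the four-cell table, beside 20.5% of all genes, and 0 of 43 against D and DR, beside 1.23% of all genes, a share at which a count of 0 is near the background. The median difference was 1.89 against the four-cell table and 0.36 against D and DR, where 28 of the 43 lay above 0 and the median of all genes was -0.11. Without D1 the median of the list was 0.73, 2 of its genes were called higher in two-cell NT against D and DR, and Gm8300 was called against both sets. Tdpoz5 was at 259, 183 and 17.6 in two-cell NT and at 0.858, 0 and 0.452 in four-cell NT, while D and DR ran from 33.1 to 235, so that the 2 four-cell sets did not overlap. Zscan4d was low, at 2.35, 3.15 and 3.09 against 0 in all 3 four-cell libraries. With α-amanitin it was at 10.4, 14 and 15.6 in two-cell embryos (limma, adjusted p = 0.00733), whereas Tdpoz5 was at 3.19, 8.68 and 2.89 (limma, adjusted p = 0.024). Pramel6 of the same list went the other way and held against both sets, at 121, 31.5 and 15.2 against 270, 399 and 567, and at 156 to 478 in D and DR.

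The 10 named genes with the largest differences in favour of two-cell NT against the four-cell table were Mir682, Prl2c2, Taf9-ps, Mir684-1, Ccl2, Taf9, Rps19-ps2, Dppa5b, Dppa5c and Prl2c3, and only 3 of the 10 held against D and DR. Mir682 was at 572, 755 and 810 in two-cell NT and at 0 in four-cell NT, but at 716 to 1173 in D and DR. Taf9, a subunit of the Pol II factor TFIID, was at 324, 356 and 364 against 2.07, 0.258 and 0.218, but at 128 to 214 in D and DR. The pair Dppa5b and Dppa5c, near-identical copies, was listed at 0 in four-cell NT, and Dppa5b was at 86.4 to 282 in D and DR. For these genes D and DR lie far from four-cell NT at the same labelled stage, although for Taf9 they also lie below two-cell NT.

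Ribosomal protein genes had a median difference of -0.22 against the four-cell table and -0.23 against D and DR over 84 genes. This sign turned to 0.20 after rescaling to protein-coding genes. Of 36 proteasome genes, 5 were called higher in four-cell NT against the four-cell table, beside 4.16% of all genes, and 31 were not called. Their median was -1.59 against the four-cell table and -0.84 against D and DR, where none was called, beside 2.12% of all genes, and it was -0.85 between the 2 four-cell sets, D and DR minus four-cell NT. For the maternal mRNA decay genes the median was 0.07 over 15 genes, and for heat shock genes -0.34 over 15. Of the 6 marker candidates of the study, Aqp3 and Tmem144 were called against the four-cell table (33.3%, beside 4.16% of all genes) and Aqp3 against both sets (16.7%, beside 1.64%). Tmem144 was at 0.881, 0.382 and 1.44 against 7.55, 14.1 and 15.7. The differences of all 6 were below 0 against the four-cell table, with a median of -1.21, but 4 were below and 2 above 0 against D and DR, with a median of -0.76, and the median between the 2 four-cell sets, D and DR minus four-cell NT, was -0.80. The study chose these candidates on embryos of this series, so that their direction is not independent evidence.

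**Figure D5:**
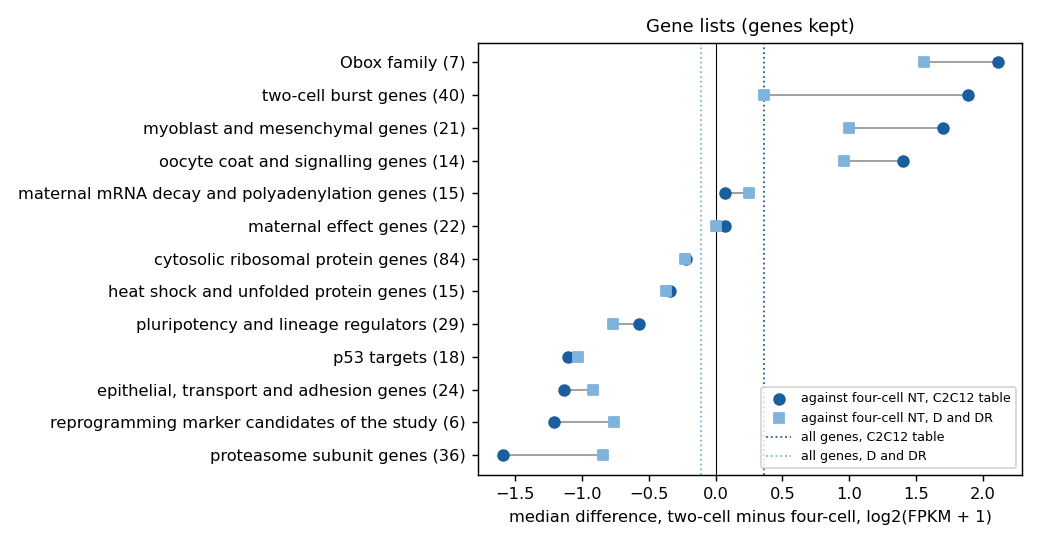
Median difference of each gene list, two-cell minus four-cell, in log2(FPKM + 1) (x axis), against the four-cell table (circles) and against D and DR (squares), with the number of genes kept in brackets; dotted lines are the medians of all genes, 0.36 and -0.11. Obox, myoblast and oocyte genes lie above 0 in both, epithelial, p53 and pluripotency genes below 0 in both, and the two-cell burst genes move from 1.89 to 0.36.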

How the data were processed

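The RNA-seq libraries were analysed from 3 tables of FPKM values, which the authors deposited after trimming (Trimmomatic, Trim Galore, cutadapt), mapping to mm10 with STAR and counting with featureCounts, as listed in the submitters' processing notes. The tables differ in make-up. Spike-ins took 3.15% to 6.26% of the reads in the two-cell table, which lists no mitochondrial genes, and mitochondrial genes took 5.76% to 6.09% in the four-cell table, which lists no spike-ins. Values were whole multiples of 1 read, within 0.05 reads, in 99.8% to 99.9% of cases in the four-cell table and in 41.2% to 44.8% in the two-cell table, so that depths in the latter are approximate.

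Tables were joined on the gene identifier without its version, and 94.6% of genes had equal lengths. Calls followed the rule stated with the results. The labels give 6 untreated two-cell samples, and the design allowed for all of them, but 3 columns were used because no name ties a column to the early or late window. Another 10 columns were left out, as their names match no single condition. α-amanitin was tested inside each table with limma 3.58.1 (R 4.3.3) with a trended variance on log2(FPKM + 1), keeping genes that reached 1 FPKM in 3 or more libraries, and p-values were Benjamini-Hochberg adjusted over all of these. The stage rule and the limma fit were tested on simulated data. Alternatives covered the pseudocount, filter, scaling, ranks, threshold and each library. Named genes are the called members of the gene lists and the 10 with the largest difference in each direction. These 10 were ranked among called genes, leaving out names that are predicted-gene, clone or accession numbers. Other genes were picked after their values were seen. The lists and the comparison were chosen with earlier results of these data known. The oryx file was not used here. Some genes that the lists count are not reported here.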

Additional observations from a re-analysis of the deposited data

Results flagged for a closer look

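Krt18, the keratin of simple epithelia, had differences of opposite sign with α-amanitin at the 2 stages. In two-cell NT it was at 0.445, 0.331 and 0 FPKM without and at 1.03, 3.36 and 0.824 with α-amanitin, a difference of medians of -0.61 on the log2(FPKM + 1) scale. In four-cell NT it was at 2.82, 7.42 and 18.8 without and at 0.691, 0 and 0 with α-amanitin, a difference of 3.07. Every library without α-amanitin was below every library with it at the two-cell stage and above at the four-cell stage. The difference between the stages was not tested, and the two-cell values are close to 0.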

How the results depend on the processing

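The count of genes higher in two-cell NT (2776) became 4363 and 1599 with limits of 1 and 3 on the log2 difference, 877 over rescaled protein-coding genes, 197 against D and DR (237 without D1) and 160 against both sets. Leaving out 1 library gave 1387 to 2847, the lowest without NT1, with 1430 without NT2 and 1437 without NT3. The filter still asked for 3 libraries, and genes kept fell from 13567 to 10744, 10961 and 10913 without NT1, NT2 and NT3. Genes below 1 FPKM throughout the four-cell table drop out by the filter, whichever two-cell library is left out. The count higher in four-cell NT (564) became 879 with a pseudocount of 0.1, 2164 on percentile ranks, 1972 and 135 with limits of 1 and 3, 342 over rescaled protein-coding genes, 339 against D and DR (367 without D1) and 220 against both sets, and leaving out 1 library gave 481 to 807. Against both sets, leaving out 1 two-cell library gave 83 to 144 genes higher in two-cell NT and 165 to 337 higher in four-cell NT. Between the 2 four-cell sets, 11 genes were higher in the four-cell table, and 36 when only DR was used.

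Among list medians, against D and DR the two-cell burst genes went to 0.36 (0.73 without D1), decay genes to 0.25 (0.28), myoblast genes to 1.00 (0.92), proteasome genes to -0.84 (-0.89), and without D1 oocyte genes to 0.88 and pluripotency genes to -0.86. Over rescaled protein-coding genes, maternal effect genes went to 0.42, decay genes to 0.45, pluripotency genes to -0.19, heat shock genes to 0.07, proteasome genes to -1.12 and ribosomal genes to 0.20, which turns their sign. Oocyte genes went to 2.08 with a pseudocount of 0.1, 0.71 without a filter and 3.10 with an FPKM of 5 as filter, heat shock genes to -0.71 with that filter, and ribosomal genes to -0.09 with median-of-ratios scaling. Leaving out 1 library, oocyte genes ranged from 0.94 to 1.83, decay genes from 0.07 to 0.27, pluripotency genes from -0.85 to -0.52, epithelial genes from -1.21 to -0.29 (the last without S17, and -0.57 without S7) and marker candidates from -1.94 to -1.23. The filter of 3 libraries was kept, so the genes behind these medians change. For epithelial genes they fell from 24 to 19 without S17 and 18 without S7. Of 91 named genes, 50 kept their call against D and DR, and 3 turned sign: Mir684-1 (-0.29, and -0.21 without D1), Mir682 (-0.16 and -0.06) and B020031M17Rik (-0.54). The causes were not tested.

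For α-amanitin at the two-cell stage, 1814 genes higher and 597 lower without it became 477 and 101 with no filter, 1080 and 984 with median-of-ratios scaling, and 540 to 2074 and 202 to 771 when 1 untreated library was left out (540 and 202 without NT1, 611 and 208 without NT2). With a replicate block on the column numbers they were 1540 and 455. Same-numbered libraries deviated together by correlations of only 0.02 to 0.07, so the numbers were not taken to pair the samples. At the four-cell stage, 1093 and 112 became 673 and 59 with a pseudocount of 0.1, 275 and 9 with no filter, 758 and 212 with median-of-ratios scaling, and 57 to 129 and 6 to 14 when 1 untreated library was left out. Few four-cell calls are thus left with 2 untreated libraries, whichever of S15, S17 and S7 is dropped (79, 129 and 57 higher, 14, 7 and 6 lower). The filter stayed at 3 libraries at both stages. Genes below 1 FPKM in all libraries with α-amanitin therefore drop out when any untreated library is left out. The four-cell columns share no numbers. With a block on adjacent column numbers, an alternative chosen after seeing the data that the labels do not give as pairs, 992 genes were higher and 115 lower, and the correlations of the deviations were 0.03 to 0.17. No paired analysis was possible between stages because those columns come from different embryos and tables. With 1829793 to 2278371 reads in the four-cell libraries, a gene listed at 0 there may hold up to about 3 reads by counting error alone.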

Other observations

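Genes of the proteasome and of translation were also set against α-amanitin at each stage. At the two-cell stage, 50 of 84 cytosolic ribosomal protein genes were higher without α-amanitin and 1 was lower, and 7 of 35 proteasome genes were higher (limma, adjusted over all genes), beside 12.7% of all genes. At the four-cell stage 0 of 84 ribosomal and 0 of 36 proteasome genes passed in either direction, beside 11.1% and 1.13% of all genes. The difference between the stages was not tested. Among the two-cell burst genes, 26 of 41 were higher and 4 lower without α-amanitin at the two-cell stage, beside 12.7% and 4.18% of all genes, and 16 of 22 were higher and 0 lower at the four-cell stage. Among p53 targets 0 of 16 were higher and 1 lower at the two-cell stage, and 8 of 15 were higher and 0 lower at the four-cell stage.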
